A study of Mus musculus with 12 samples.

Results

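The tumour suppressor p53, encoded by Trp53, and 9 genes that it switches on were followed in liver RNA of mice with and without an iron-loaded diet. The 10 genes were chosen by name, as the rows of the count table whose Ensembl mouse identifier belongs to Cdkn1a, Mdm2, Ccng1, Bax, Phlda3, Trp53inp1, Eda2r, Zmat3, Bbc3 or Trp53. All 10 were found among the 27022 genes of the table. The RNA came from the large liver lobe of 6 female SJL/J mice, which all started on the AIN-93G control diet with 50 ppm iron at 3 weeks of age. The 3 control mice stayed on it, and the 3 iron-loaded mice received the AIN-93G diet with 2% carbonyl iron from 6 weeks of age. All were fasted and perfused at 11 weeks. Each diet went to a single cage, and the effects of diet and of cage cannot be told apart. The RNA of each mouse was made into a Trad-KAPA library, which reads whole transcripts, and a 3’-LEXO library, which reads the 3′ end of transcripts. This gave 12 libraries, and the same number was taken to name the same mouse in both kits.

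p53 is a transcription factor that is made and destroyed continuously, and DNA damage, oxidative stress and other injuries stabilise the protein with little need for more of its mRNA. Its targets include Mdm2, the ubiquitin ligase that marks p53 for destruction and so closes a feedback loop, genes that stop the cell cycle such as Cdkn1a (p21), and genes that start apoptosis such as Bbc3 (PUMA) and Bax. In the liver, p53 target transcripts are known as readouts of genotoxic and metabolic stress in hepatocytes, although several of them also answer to other stress factors.

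p53 binds its targets as a tetramer, through a pair of 10-base elements called p53 decamers. The 250 bases before each transcription start that RefSeq lists (GRCm38.p6) were searched for exact matches to the consensus decamer, which is its own reverse complement, so that 1 search covers both strands. The table held 11 promoters of 8 of the 10 genes. Trp53inp1 and Zmat3 are named only. Exact decamers were found in 5 of the 11 promoters, those of Cdkn1a (the upstream one of 2 starts), Mdm2, Ccng1, Bax and Trp53, and none was found in those of Phlda3, Eda2r, Bbc3 (3 starts) or the downstream start of Cdkn1a. Among all 32851 promoters of the same length, 2341 (7.13%) held at least 1. The upstream Cdkn1a promoter held 2 of them, beginning at positions -73 and -51, no more than 13 bases apart, and 21 of all promoters (0.0639%) held such a pair. Single decamers began at -186 in Mdm2, -185 in Ccng1, -201 in Bax and -75 in Trp53, where -1 is the base before the start. The 4 target promoters with a match are shown 5′ to 3′ on the strand of the gene, with the decamers in capitals, because these are 4 genes whose levels across the mice are set side by side in what follows. A match is a description of the letters and not a bound site.
Cdkn1a (chr17:29090729-29090978, + strand): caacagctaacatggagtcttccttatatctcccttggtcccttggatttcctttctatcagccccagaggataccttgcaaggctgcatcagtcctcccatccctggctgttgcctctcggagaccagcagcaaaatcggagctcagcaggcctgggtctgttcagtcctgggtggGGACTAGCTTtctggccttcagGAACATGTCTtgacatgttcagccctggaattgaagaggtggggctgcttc
Mdm2 (chr10:117710759-117711008, - strand): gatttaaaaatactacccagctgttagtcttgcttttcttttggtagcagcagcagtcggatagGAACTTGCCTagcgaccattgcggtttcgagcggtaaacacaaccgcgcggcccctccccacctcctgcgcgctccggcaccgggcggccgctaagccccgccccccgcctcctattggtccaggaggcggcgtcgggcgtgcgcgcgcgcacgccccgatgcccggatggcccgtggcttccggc
Ccng1 (chr11:40755287-40755536, - strand): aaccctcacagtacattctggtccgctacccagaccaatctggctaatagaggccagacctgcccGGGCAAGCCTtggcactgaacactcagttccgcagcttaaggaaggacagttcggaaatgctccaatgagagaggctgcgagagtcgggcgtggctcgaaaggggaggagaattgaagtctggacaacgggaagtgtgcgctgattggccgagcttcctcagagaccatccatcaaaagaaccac
Bax (chr7:45466899-45467148, - strand): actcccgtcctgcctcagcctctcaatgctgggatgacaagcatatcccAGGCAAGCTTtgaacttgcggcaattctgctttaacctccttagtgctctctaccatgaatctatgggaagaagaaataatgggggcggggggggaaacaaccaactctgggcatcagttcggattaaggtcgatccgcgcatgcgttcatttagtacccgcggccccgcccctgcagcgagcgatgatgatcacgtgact

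The libraries held 13834682 to 16553616 counts in Trad-KAPA and 10724672 to 14104236 in 3’-LEXO. A single mouse stood apart. In the Trad-KAPA library of iron-loaded mouse 1, 349 of 9311 well-measured genes differed by more than 2-fold from the mean of the other iron-loaded mice, against 37 to 63 in the other Trad-KAPA libraries. In its 3’-LEXO library the number was 413, against 39 to 82. Its hepatocyte markers (Alb, Apoa1, Ttr, Cyp2e1, Tat and Pck1) summed to 111871 CPM (counts scaled to library size) in Trad-KAPA, below the 138090 to 152757 of the other mice, and to 45693 CPM in 3’-LEXO, below 55049 to 70059. Such a sum is set by its most abundant markers. For 2 of the 6 in each kit, iron-loaded mouse 1 was above the mean of iron-loaded mice 2 and 3. The levels of the 10 genes are therefore given per mouse, and the tests of the 9 tested ones with and without this mouse. The liver label held, since all 6 hepatocyte markers were detected in each library. Of the markers of other cells, only Spp1 of 5 cholangiocyte and Lyve1 of 5 sinusoidal endothelial markers were higher on the iron diet in both kits, with Lyve1 missing the threshold in 3’-LEXO without iron-loaded mouse 1 (adjusted p = 0.0619, edgeR). The summed cholangiocyte markers ranged from 23.6 to 26.5 CPM in control and from 33.5 to 39.0 CPM in iron-loaded mice in Trad-KAPA. Most of this sum was Spp1, at 17.3 to 21.4 and 29.0 to 32.7 CPM (scaled within the kit). In each kit 1 of the 5 was lower in every iron-loaded mouse than in every control mouse. Without iron-loaded mouse 1 the median log2 fold change of the 3 tested ones was -0.015 (Trad-KAPA) and 0.0071 (3’-LEXO). The endothelial list as a whole went opposite to Lyve1 in 3’-LEXO, with Stab2 called lower, a median log2 fold change of -0.32 over 5 markers, and a sum of 238 to 260 CPM in iron-loaded against 278 to 351 CPM in control mice. In Trad-KAPA the sums of the iron-loaded mice lay above those of the control mice for the Kupffer cell and macrophage list (633 to 644 against 376 to 598 CPM) and the lymphocyte list (22.99 to 27.0 against 14.02 to 21.2 CPM), and in 3’-LEXO the sums of both lists overlapped. Their part in the results was not tested, and in bulk RNA fewer cells of a type and less RNA per cell cannot be told apart.

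Trp53inp1 (2.86-fold) and Mdm2 (1.36-fold) rose and Bbc3 fell (to 0.533 of control) on the iron diet in Trad-KAPA, and Cdkn1a was high in a single iron-loaded mouse. Levels of Trp53 itself and of Ccng1 and Zmat3 overlapped between the diets. In Trad-KAPA, Trp53inp1 and Mdm2 passed the test upward and Bbc3 downward among the 9 genes with enough counts, and in 3’-LEXO Trp53inp1 alone passed it. The test was edgeR's quasi-likelihood test with Benjamini-Hochberg adjustment over all genes, with an adjusted p below 0.05 taken as a call. Of the 5 genes with a consensus decamer in a promoter, Mdm2 was called, and Bbc3, also called, had none in its 3 promoters. Trp53inp1, called in both kits, had no promoter to search. For Mdm2 the bases before its outermost start were searched, and not those before a start within the gene. Decamers and calls can therefore not be set against each other. Eda2r was not tested, with 1 to 9 counts in Trad-KAPA and 0 to 5 in 3’-LEXO.

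Calls were not rare in this liver. Of the 13151 genes tested in Trad-KAPA, 8.77% were called higher and 8.37% lower on the iron diet, beside 2 and 1 of these 9 genes. Of the 13301 tested in 3’-LEXO, 3.17% were called higher and 2.92% lower, beside 1 and 0 of the 9. The 0 lower calls in 3’-LEXO stand beside 1 gene (Bbc3) that was lower at an unadjusted p below 0.05, and DESeq2 called that gene. At that unadjusted level 4 genes were higher in 3’-LEXO, and 3 higher and 1 lower in Trad-KAPA. For the diet tests no share over all genes was taken at the unadjusted level, here or for the lists below. Such counts therefore give no comparison with other genes. In each kit 3 of the 9 genes were higher in every iron-loaded mouse than in every control mouse and 1 was lower. In 3’-LEXO the higher ones included Phlda3, by a hairline (at least 1.73 against at most 1.66 CPM). Among all tested genes such separation occurred upward in 20.7% and downward in 21.1% in Trad-KAPA, and in 15.9% and 15.6% in 3’-LEXO. The 9 had a median log2 fold change of 0.29 (Trad-KAPA) and 0.45 (3’-LEXO), beside 0.016 and 0.013 over all genes. Without iron-loaded mouse 1 the medians were 0.14 and 0.24, with the same number of calls in each kit.

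**Figure D1:**
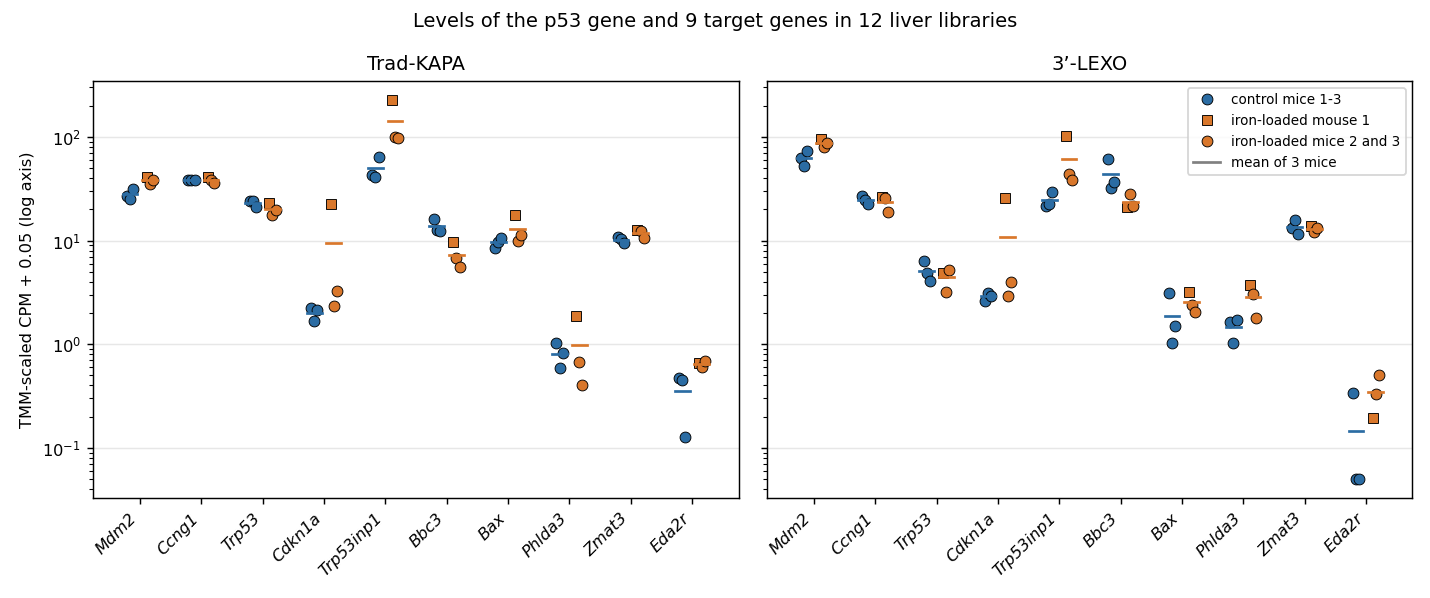
Level of each of the 10 genes in every library, as TMM-scaled CPM plus 0.05 on a log axis, in Trad-KAPA (left) and 3’-LEXO (right). Blue circles are control mice, orange circles iron-loaded mice 2 and 3, orange squares iron-loaded mouse 1, and lines are means of 3 mice. Trp53inp1 is higher and Bbc3 lower in all iron-loaded mice, and the Cdkn1a mean of the iron-loaded group rests on the square at 22.7 and 25.7 CPM.

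The gene for p53 itself (Trp53, chromosome 11, 69580359 to 69591873, + strand, GRCm38) was measured at 24.3, 24.0 and 20.9 CPM in control mice 1, 2 and 3 and at 23.1, 17.6 and 19.6 CPM in iron-loaded mice 1, 2 and 3 in Trad-KAPA, where CPM are scaled by TMM within a kit. The 3’-LEXO levels were 6.31, 4.87 and 4.01 CPM in control and 4.80, 3.16 and 5.18 CPM in iron-loaded mice. The diets overlapped in both kits. The log2 fold change was -0.20 in Trad-KAPA (SE 0.13, adjusted p = 0.325, edgeR) and -0.20 in 3’-LEXO (SE 0.26, adjusted p = 0.671). They were -0.31 and -0.29 (adjusted p = 0.0871 and 0.614, edgeR) without iron-loaded mouse 1. A difference of the size of these errors was not detectable with 3 mice on each diet.

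Mdm2 (chromosome 10, 117688875 to 117710758, - strand) encodes the ligase that keeps p53 low, and p53 drives it from a start within the gene. In Trad-KAPA it stood at 26.8, 25.3 and 31.5 CPM in control and at 40.9, 34.8 and 38.3 CPM in iron-loaded mice. In 3’-LEXO the levels were 62.4, 52.4 and 73.0 CPM in control and 96.1, 80.3 and 87.2 CPM in iron-loaded mice. Every iron-loaded mouse was above every control mouse in both kits, by a modest margin. Mdm2 was 1.36-fold higher in Trad-KAPA (log2 0.45, SE 0.12, adjusted p = 0.0362, edgeR) and 1.40-fold higher in 3’-LEXO (log2 0.49, SE 0.16), where it missed the threshold (adjusted p = 0.0952). Without iron-loaded mouse 1 the Trad-KAPA log2 fold change was 0.40, which passed in edgeR (adjusted p = 0.0381) and not in DESeq2 (adjusted p = 0.0750), and the 3’-LEXO value was 0.41 (adjusted p = 0.15, edgeR). The call was a close one. It was lost without control mouse 1 (adjusted p = 0.110) or 2 (0.121) and without iron-loaded mouse 2 (0.0577) or 3 (0.0929), all by edgeR.

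Cdkn1a (chromosome 17, 29090976 to 29100727, + strand) encodes p21, the inhibitor of cyclin-dependent kinases through which p53 arrests the cell cycle. Its Trad-KAPA levels were 2.18, 1.62 and 2.09 CPM in control and 22.7, 2.27 and 3.19 CPM in iron-loaded mice. Its 3’-LEXO levels were 2.54, 3.10 and 2.87 CPM in control and 25.7, 2.88 and 3.91 CPM in iron-loaded mice. Iron-loaded mouse 1 stood 11.5 times above the control mean in Trad-KAPA and 9.05 times above it in 3’-LEXO, from 338 and 353 counts. The other iron-loaded mice lay just above the control range in Trad-KAPA, and 1 of them lay within it in 3’-LEXO. The fold change of the group was 4.78 in Trad-KAPA (log2 2.26, SE 0.83) and 3.87 in 3’-LEXO (log2 1.95, SE 0.71), and neither passed the test (adjusted p = 0.0936 and 0.125, edgeR). Without iron-loaded mouse 1 the log2 fold changes were 0.48 (SE 0.28, adjusted p = 0.265) and 0.25 (SE 0.28, adjusted p = 0.647). Without iron-loaded mouse 2, whose level was near the controls, the gene passed in both kits (log2 2.72 and 2.37, adjusted p = 0.0459 and 0.0451, edgeR). The fold change of the group thus turned on which mice were counted, while mouse 1 was high by both kits.

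Ccng1 (chromosome 11, 40748552 to 40755311, - strand), which encodes cyclin G1 and is a long-known p53 target, lay close together across the mice. In Trad-KAPA it was at 38.6, 38.3 and 38.2 CPM in control and 40.9, 38.4 and 36.1 CPM in iron-loaded mice. In 3’-LEXO it was at 26.7, 24.8 and 22.4 CPM in control and 26.5, 25.8 and 18.7 CPM in iron-loaded mice. The diets overlapped, and the log2 fold changes were 0.0053 (Trad-KAPA, SE 0.094) and -0.056 (3’-LEXO, SE 0.17) (adjusted p = 0.973 and 0.871, edgeR). They were -0.038 and -0.15 (adjusted p = 0.787 and 0.651, edgeR) without iron-loaded mouse 1. Iron-loaded mouse 1 was 1.07 and 1.08 times the control mean, the same mouse in which Cdkn1a was highest.

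Trp53inp1 (chromosome 4, 11156431 to 11174379, + strand), a stress protein that binds p53 and takes part in autophagy, was the gene that passed the test in both kits. Its Trad-KAPA levels were 42.8, 41.4 and 64.3 CPM in control and 227, 99.0 and 98.4 CPM in iron-loaded mice. Its 3’-LEXO levels were 21.4, 22.4 and 29.3 CPM in control and 101, 43.7 and 38.4 CPM in iron-loaded mice. All iron-loaded mice were above all control mice in both kits, mouse 1 the most, and mice 2 and 3 were close to each other. Trp53inp1 rose 2.86-fold in Trad-KAPA (log2 1.52, SE 0.34, adjusted p = 0.0219, edgeR) and 2.51-fold in 3’-LEXO (log2 1.33, SE 0.33, adjusted p = 0.0466). Without iron-loaded mouse 1 the rise was smaller and its error smaller too, with log2 fold changes of 1.00 (SE 0.17, adjusted p = 0.00557) and 0.75 (SE 0.16, adjusted p = 0.0223). The Trad-KAPA call was lost without control mouse 1 (log2 1.42, adjusted p = 0.0783) or 2 (1.40, adjusted p = 0.0850). The 3’-LEXO call was lost without control mouse 1, 2 or 3 (log2 1.24, 1.27 and 1.47, adjusted p = 0.157, 0.147 and 0.110).

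Bbc3 (chromosome 7, 16308393 to 16318205, + strand) encodes PUMA, a BH3-only protein that triggers mitochondrial apoptosis, and it moved opposite to Trp53inp1. In Trad-KAPA it was at 16.2, 12.5 and 12.3 CPM in control and at 9.72, 6.68 and 5.47 CPM in iron-loaded mice. In 3’-LEXO it was at 61.4, 32.2 and 36.5 CPM in control and at 21.2, 28.2 and 21.4 CPM in iron-loaded mice. Every iron-loaded mouse was below every control mouse in both kits. Bbc3 fell to 0.533 of its control level in Trad-KAPA (log2 -0.91, SE 0.22, adjusted p = 0.0294, edgeR). The 3’-LEXO value was 0.544 of control (log2 -0.88, SE 0.24), which missed the threshold in edgeR (adjusted p = 0.0624) and passed it in DESeq2 (adjusted p = 0.0149). Without iron-loaded mouse 1 the log2 fold change was -1.17 in Trad-KAPA (adjusted p = 0.00373, edgeR) and -0.81 in 3’-LEXO (adjusted p = 0.0917). Leaving out any other mouse ended the Trad-KAPA call, with log2 fold changes from -0.98 to -0.74 and adjusted p of 0.0967, 0.0708 and 0.0656 without control mice 1, 2 and 3 and 0.0792 and 0.0738 without iron-loaded mice 2 and 3. In 3’-LEXO, control mouse 1 alone was at 61.4 CPM, and without it the log2 fold change was -0.55 (adjusted p = 0.161).

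Bax (chromosome 7, 45461697 to 45466898, - strand) encodes a pore-forming protein of the outer mitochondrial membrane. It was at 8.52, 9.61 and 10.6 CPM in control and 17.6, 9.84 and 11.1 CPM in iron-loaded mice in Trad-KAPA. In 3’-LEXO it was at 3.05, 0.988 and 1.44 CPM in control and 3.13, 2.32 and 2.00 CPM in iron-loaded mice, from 14 to 43 counts. Only iron-loaded mouse 1 lay clearly apart, in Trad-KAPA, and the groups overlapped in both kits. The log2 fold changes of 0.43 (SE 0.22) and 0.45 (SE 0.42) did not pass the test (adjusted p = 0.212 and 0.530, edgeR). Without that mouse they were 0.14 and 0.24 (adjusted p = 0.530 and 0.814, edgeR). In GENCODE M21 192 bases of Bax exons are shared with Gm45808 on the same strand, which is not in the table.

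Phlda3 (chromosome 1, 135766119 to 135769136, + strand) encodes a small protein that restrains AKT signalling at the membrane. Its Trad-KAPA levels were 0.967, 0.541 and 0.772 CPM in control and 1.81, 0.619 and 0.355 CPM in iron-loaded mice, from 5 to 27 counts. Its 3’-LEXO levels were 1.595, 0.988 and 1.66 CPM in control and 3.71, 2.97 and 1.73 CPM in iron-loaded mice, from 14 to 51 counts. The iron-loaded mice lay above the control mice in 3’-LEXO and on both sides of them in Trad-KAPA. The 3’-LEXO margin was a hairline, with 19 counts in iron-loaded mouse 3 and 22 in control mouse 3. The groups were separate there only after scaling. The log2 fold change was 1.00 in 3’-LEXO (SE 0.37, adjusted p = 0.129, edgeR) and 0.72 (adjusted p = 0.311) without iron-loaded mouse 1. In Trad-KAPA it was 0.29 (SE 0.58, adjusted p = 0.758) and turned to -0.63 (adjusted p = 0.403) without that mouse.

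Zmat3 (chromosome 3, 32334792 to 32366014, - strand), which encodes an RNA-binding zinc finger protein, stood at 10.8, 10.3 and 9.35 CPM in control and 12.5, 12.2 and 10.6 CPM in iron-loaded mice in Trad-KAPA. In 3’-LEXO it was at 13.1, 15.8 and 11.5 CPM in control and 13.8, 12.1 and 13.1 CPM in iron-loaded mice. The diets overlapped, with log2 fold changes of 0.22 (SE 0.13) and -0.049 (SE 0.17) (adjusted p = 0.285 and 0.890, edgeR). They were 0.17 and -0.10 (adjusted p = 0.401 and 0.789, edgeR) without iron-loaded mouse 1. Eda2r (chromosome X, 97333840 to 97377216, - strand), a receptor of the tumour necrosis factor receptor family, was barely detected. It gave 7, 6 and 1 counts in control and 9, 8 and 9 counts in iron-loaded mice in Trad-KAPA, and 4, 0 and 0 against 2, 3 and 5 counts in 3’-LEXO. The groups were separate in Trad-KAPA by a margin of single counts and overlapped in 3’-LEXO. No difference can be read at this depth, where a library with 0 counts allows up to 3.

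**Figure D2:**
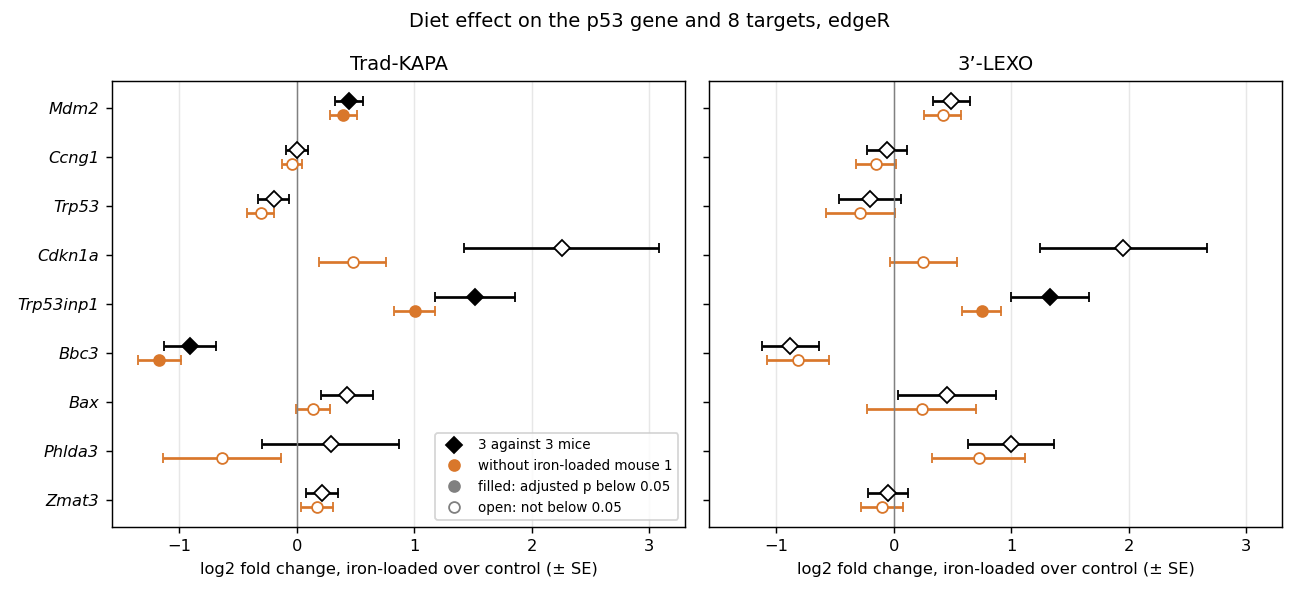
Log2 fold change of the 9 tested genes, iron-loaded over control, with its SE, in Trad-KAPA (left) and 3’-LEXO (right). Black diamonds use 3 against 3 mice and orange circles leave out iron-loaded mouse 1, with filled symbols where the adjusted p of edgeR is below 0.05. Cdkn1a drops from 2.26 to 0.48 in Trad-KAPA without that mouse, while Trp53inp1 remains called in both kits.

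Iron-loaded mouse 1 was above the mean of iron-loaded mice 2 and 3 in 9 of the 9 tested genes in Trad-KAPA and in 8 of 9 in 3’-LEXO, by 8.29 and 7.57 times for Cdkn1a, 2.30 and 2.46 times for Trp53inp1 and 1.12 and 1.15 times for Mdm2. The exception was Bbc3 in 3’-LEXO, at 0.854 times. No share over all genes was taken for this count, here or for the lists below. Among the Kupffer cell and macrophage markers the count was 1 of 7 in Trad-KAPA and 7 of 7 in 3’-LEXO. Among 12 proliferation genes it was 0 in each kit. Among the 7 ATF4 targets described below it was 7 in each kit. A high count thus also occurred outside the p53 genes, and the lists differed. To see which transcripts tracked Cdkn1a most closely, log2 CPM was centred within each kit and correlated over the 12 libraries among 9311 genes. The closest were Nubp1 (r = 0.995), Gorasp2 (0.993), Hspa9 (0.992), Faf1 (0.989) and Abca8b (0.986). Of the p53 genes compared, Trp53inp1 reached 0.900, Mdm2 0.751, Zmat3 0.581, Ccng1 0.501 and Trp53 0.263, and Bbc3 was at -0.307. Bax, Phlda3 and Eda2r had too few counts to be compared. These values describe 6 mice measured in both kits and rest on iron-loaded mouse 1. Hspa9, a mitochondrial chaperone, was at 1129 CPM in that mouse and at 402 to 460 CPM in the other 5 in Trad-KAPA, and at 1117 against 383 to 461 CPM in 3’-LEXO. Nubp1, an iron-sulfur cluster assembly factor, was at 28.9 against 16.8 to 19.6 CPM in Trad-KAPA.

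The kits did not differ detectably in the diet effect on any of the 9 genes. In the interaction test over all 12 libraries, 0 of the 9 were called, and 0 of 14384 genes (0.0%), while 402 genes and 0 of the 9 had an unadjusted p below 0.05, and DESeq2, which gave no p for Cdkn1a, called 0 of the other 8. The precision of this comparison differed widely between genes. The 3’-LEXO minus Trad-KAPA difference of log2 fold changes was 0.040 (SE 0.20) for Mdm2, 0.023 (SE 0.35) for Bbc3, -0.18 (SE 0.53) for Trp53inp1 and -0.30 (SE 1.24) for Cdkn1a. By these errors a sizeable difference remained possible for the last pair. The largest difference was 0.71 (SE 0.72), for Phlda3. The interaction fit had no term for the mouse, although both kits were used on the same RNAs. Its errors therefore include the spread between mice and are not those of a paired comparison. With the mouse as a block the difference was -0.22 for Trp53inp1 and -0.29 for Cdkn1a (adjusted p = 0.757 and 0.872, edgeR).

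The level itself depended on the kit. The 3’-LEXO to Trad-KAPA ratio of CPM, here by total counts, was taken within each mouse and averaged over 6 mice. It was lowest for Bax (0.198 ± 0.088, SD) and Trp53 (0.217 ± 0.033), lower than even for Trp53inp1 (0.463 ± 0.057) and Ccng1 (0.628 ± 0.066), and near even for Zmat3 (1.22 ± 0.20) and Cdkn1a (1.35 ± 0.31). It was high for Mdm2 (2.27 ± 0.08), Phlda3 (2.89 ± 1.51) and Bbc3 (3.27 ± 0.81). The median over 12229 genes was 0.992, with quartiles of 0.585 and 1.68, so that Bax, Trp53 and Trp53inp1 lay below and Mdm2, Phlda3 and Bbc3 above the middle range. Trp53 therefore had 34 to 87 counts per library in 3’-LEXO and 256 to 402 in Trad-KAPA, and Bbc3 236 to 847 against 77 to 268.

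**Figure D3:**
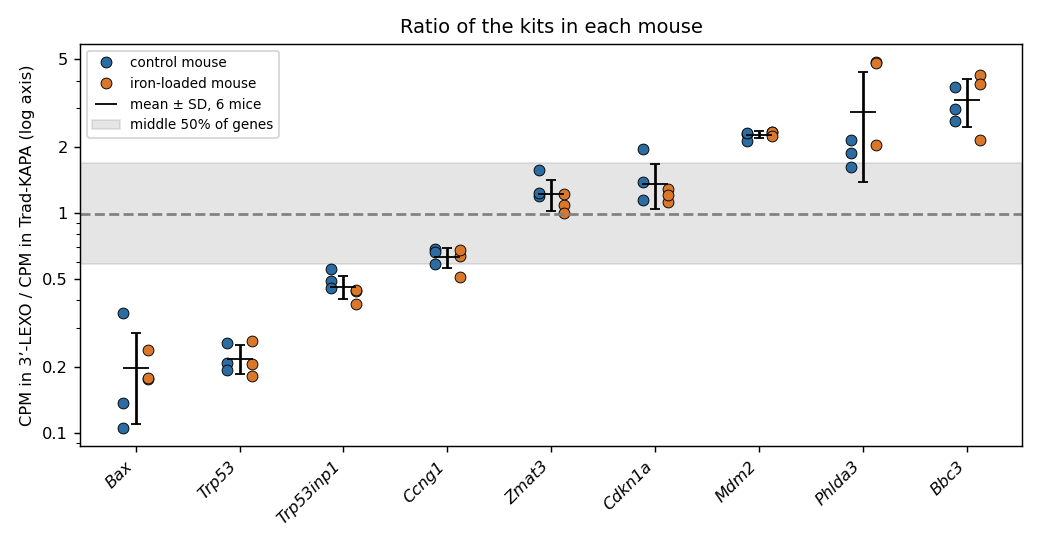
Ratio of CPM in 3’-LEXO to CPM in Trad-KAPA for the 9 tested genes on a log axis, with 1 point per mouse, blue for control and orange for iron-loaded, and bars for the mean ± SD over 6 mice. The dashed line and grey band are the median (0.992) and middle 50% of 12229 genes. Bax and Trp53 lie near 0.2 and Bbc3 near 3.27.

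In Trad-KAPA, levels of different genes were compared per length. For this, CPM by total counts were divided by the summed exon length of a gene in GENCODE M21. That length takes in all annotated exons, whichever transcripts the liver expressed. In control mice Ccng1 came first at 10.6 CPM per kb (range 10.2 to 11.0), above Trp53inp1 at 7.41 (6.33 to 9.30) in every mouse. Bbc3 at 6.29 (5.41 to 7.62), Bax at 5.91 (5.40 to 6.28), Trp53 at 5.56 (4.82 to 6.00) and Mdm2 at 5.33 (4.93 to 5.80) followed, and from Trp53inp1 to Mdm2 the ranges of neighbours overlapped. Zmat3 at 0.865 (0.765 to 0.940) lay well below Mdm2 and above Cdkn1a at 0.538 (0.452 to 0.612), whose range overlapped that of Phlda3 at 0.476 (0.344 to 0.620). Eda2r was lowest at 0.0508 (0.0123 to 0.0718). In iron-loaded mice the order at the top was the other way round. Trp53inp1 was at 15.2 to 37.3 and Ccng1 at 10.4 to 12.4 CPM per kb, and Cdkn1a reached 6.79 in mouse 1. In the paper 3’-LEXO read counts appeared not to depend on transcript length, and the control means of that kit gave another order. Mdm2 (62.6 CPM) and Bbc3 (43.4) lay above Ccng1 (24.6) and Trp53inp1 (24.4). Zmat3 (13.4) lay above Trp53 (5.06) and Bax (1.82). The order thus depended on the kit.

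Beyond these 10, 35 other p53 targets were examined in 4 lists by role. Of them 34 were in the table and 30 were tested in each kit. In Trad-KAPA 8 rose and 2 fell, beside 8.77% and 8.37% of all genes, and in 3’-LEXO 4 rose and 1 fell, beside 3.17% and 2.92%. Their median log2 fold changes were 0.21 (Trad-KAPA) and 0.11 (3’-LEXO), beside 0.016 and 0.013 over all genes. Genes of the cell cycle list rose in 2 of 5 tested cases (Trad-KAPA) and 1 of 6 (3’-LEXO), those of the apoptosis list rose in 1 and fell in 1 of 8 (Trad-KAPA) and in 0 and 0 of 7 (3’-LEXO), those of DNA repair rose in 1 of 5 in both kits, and those of metabolism and growth control rose in 4 and fell in 1 of 12 in Trad-KAPA and rose in 2 and fell in 1 of 12 in 3’-LEXO. The apoptosis list in 3’-LEXO had 1 higher and 1 lower gene at an unadjusted p below 0.05, and DESeq2 called 0.

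Gadd45a, which acts in DNA repair and growth arrest, rose most among those called in both kits. It was at 3.32, 3.04 and 2.78 CPM in control and 47.9, 7.57 and 7.17 CPM in iron-loaded mice in Trad-KAPA, and at 3.99, 4.80 and 3.63 against 62.1, 10.04 and 11.2 CPM in 3’-LEXO. Its log2 fold change was 2.77 in Trad-KAPA (SE 0.74, adjusted p = 0.0380, edgeR) and 2.75 in 3’-LEXO (SE 0.65, adjusted p = 0.0388). It was also above the control range in iron-loaded mice 2 and 3 in both kits, and without mouse 1 its log2 fold changes were 1.27 and 1.35 (adjusted p = 0.00273 and 0.00328, edgeR).

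The polo-like kinase Plk3 rose from 16.3 ± 2.9 to 45.2 ± 28.0 CPM in Trad-KAPA (SD, n = 3; log2 1.47, adjusted p = 0.0330, edgeR) and from 9.17 ± 1.57 to 21.2 ± 6.1 CPM in 3’-LEXO (log2 1.21, adjusted p = 0.0176). Ddit4 (REDD1), which restrains the growth kinase complex mTORC1, rose from 3.26 ± 1.22 to 17.0 ± 9.8 CPM in Trad-KAPA (SD, n = 3; log2 2.38, adjusted p = 0.0116, edgeR) and by 2.22 on the log2 scale in 3’-LEXO (adjusted p = 0.00908). Ephx1, the microsomal epoxide hydrolase that detoxifies epoxides, rose with little spread among the iron-loaded mice, from 148 ± 11 to 311 ± 46 CPM in Trad-KAPA (SD, n = 3; log2 1.07, adjusted p = 0.00374, edgeR) and by 1.00 in 3’-LEXO (adjusted p = 0.00888).

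The liver glutaminase Gls2 was the one of these that fell in both kits, from 453 ± 112 to 206 ± 43 CPM in Trad-KAPA (SD, n = 3; log2 -1.14, adjusted p = 0.0138, edgeR) and by 1.16 on the log2 scale in 3’-LEXO (adjusted p = 0.0214). These 5 genes kept their calls in both kits without iron-loaded mouse 1. Called in Trad-KAPA only, and named after their values were seen, were Gtse1, Pmaip1, Tigar and Lpin1 upward and Ei24 downward. Of the apoptosis inducers, Pmaip1 (NOXA) rose from 1.32 ± 0.22 to 3.00 ± 0.62 CPM in Trad-KAPA (SD, n = 3; adjusted p = 0.0224, edgeR, and 0.0315 without iron-loaded mouse 1), while Bbc3, of the same BH3-only class, fell there.

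**Figure D4:**
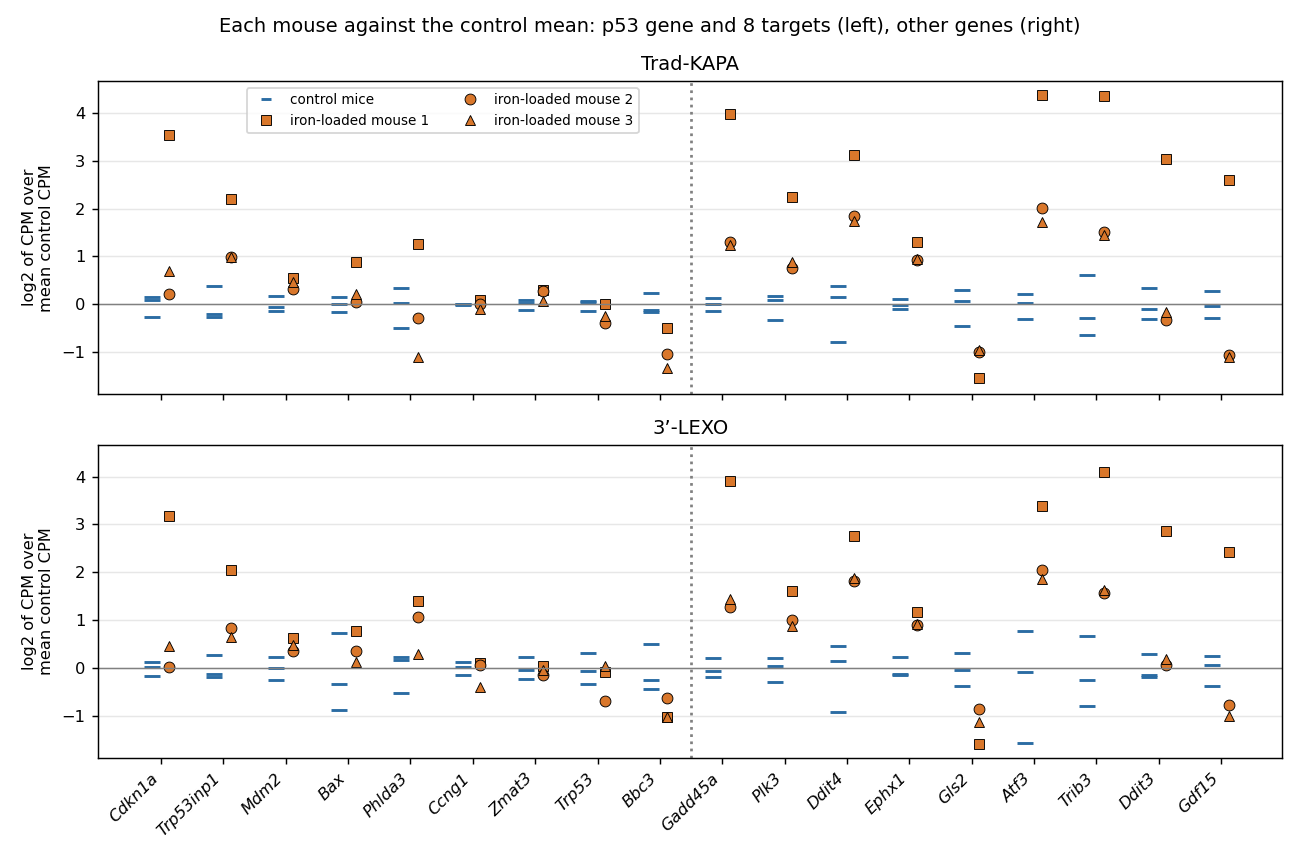
Log2 of the CPM of each mouse over the control mean, for 9 of the 10 genes (left of the dotted line) and for 9 other p53 target and stress genes (right), in Trad-KAPA (top) and 3’-LEXO (bottom). Blue dashes are control mice, and orange squares, circles and triangles are iron-loaded mice 1, 2 and 3. Cdkn1a, Ddit3 and Gdf15 stand far above the controls in mouse 1 alone, and Gadd45a, Ddit4, Ephx1, Atf3 and Trib3 are above 0 in all iron-loaded mice.

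Of the 4 feedback genes Mdm4, Ppm1d, Cop1 and Rchy1, which limit p53 or its kinases, 0 were called in either kit by edgeR or DESeq2, and 0 had an unadjusted p below 0.05. Of all genes 8.77% were called higher and 8.37% lower in Trad-KAPA by edgeR, and 3.17% and 2.92% in 3’-LEXO. The counts of the lists in this paragraph stand beside these shares. Among 8 tested genes of the p53 family and its upstream kinases and cofactors, Atr, the kinase of the replication stress response, rose from 14.7 ± 2.1 to 41.7 ± 15.1 CPM in Trad-KAPA (SD, n = 3; log2 1.51, adjusted p = 0.00786, edgeR) and by 1.33 in 3’-LEXO (adjusted p = 0.0421). Trp53bp1, the double-strand break repair factor 53BP1, fell by 0.49 in Trad-KAPA (adjusted p = 0.0197, edgeR) and by 0.73 in 3’-LEXO (adjusted p = 0.0252) on the log2 scale. Both kept their calls in both kits without iron-loaded mouse 1. Of the BCL-2 family, 1 of 10 tested genes was called in Trad-KAPA and 0 of 11 in 3’-LEXO. That gene was Bcl2l11 (BIM), named after its value was seen, with log2 0.68 in Trad-KAPA (adjusted p = 0.0195, edgeR) and 0.65 in 3’-LEXO (adjusted p = 0.0792), and 0.57 and 0.42 without iron-loaded mouse 1 (adjusted p = 0.0175 and 0.146, edgeR). In 3’-LEXO 2 members of the family were higher and 2 lower at an unadjusted p below 0.05, and DESeq2 called 0. Of the other CDK inhibitors 0 of 4 tested were called in each kit by edgeR or DESeq2, with 0 (Trad-KAPA) and 2 (3’-LEXO) higher at an unadjusted p below 0.05.

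Of 11 tested proliferation genes 2 rose in each kit, beside 8.77% (Trad-KAPA) and 3.17% (3’-LEXO) of all genes. They were the G1 cyclins Ccne1 (log2 2.56 and 1.63, adjusted p = 0.00579 and 0.0359, edgeR) and Ccne2 (log2 1.24 and 1.67, adjusted p = 0.0227 and 0.0169). In both, iron-loaded mouse 1 was not above the others, at 0.772 and 0.812 times the mean of mice 2 and 3 for Ccne1 and 0.623 and 0.603 times for Ccne2, and both remained called in both kits without it. The same mouse had the highest Cdkn1a.

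Several p53 targets are also targets of ATF4, the transcription factor of the integrated stress response. Of the 4 tested genes on both lists 2 rose in Trad-KAPA and 1 in 3’-LEXO, beside 8.77% and 3.17% of all genes. Of 7 ATF4 targets that are not on the p53 lists 4 (Trad-KAPA) and 3 (3’-LEXO) rose, with median log2 fold changes of 2.498 and 1.900, beside 0.016 and 0.013 over all genes. In both kits these were Asns (asparagine synthetase, log2 6.09 and 5.19), Atf3 (3.22 and 2.60) and Trib3 (3.12 and 2.94), with adjusted p of 0.00363 and 0.00429, 0.0277 and 0.0301, and 0.0329 and 0.0359 (edgeR). All 3 remained called in both kits without iron-loaded mouse 1. Their log2 fold changes were then smaller, at 5.22 and 4.24, 1.88 and 1.93, and 1.48 and 1.597. Asns was close to absent in control mice, at 0.121 to 0.541 CPM in Trad-KAPA and 0.145 to 0.227 CPM in 3’-LEXO. These are only a few counts per library, and the size of its fold change is uncertain. In iron-loaded mice it was at 39.6, 11.2 and 11.4 CPM and at 14.3, 3.62 and 4.09 CPM. Iron-loaded mouse 1 was above the mean of mice 2 and 3 in 7 of the 7 in each kit. Trib3, for example, was at 489, 68.6 and 65.7 CPM in iron-loaded mice 1, 2 and 3 and at 36.7, 15.3 and 19.7 CPM in control mice in Trad-KAPA. Gdf15 and Ddit3, named after their values were seen, followed Cdkn1a in being high in mouse 1 alone. Gdf15 was at 13.9, 1.10 and 1.06 CPM in iron-loaded mice and at 1.87, 2.77 and 2.24 CPM in control mice in Trad-KAPA. Ddit3 (CHOP) was at 29.1, 2.82 and 3.19 CPM against 4.47, 3.32 and 2.86 CPM. Neither passed the test in Trad-KAPA (log2 1.23 and 1.71, adjusted p = 0.363 and 0.184, edgeR). Without iron-loaded mouse 1 Gdf15 turned in sign in both kits, to -1.07 in Trad-KAPA, where it was then called lower (adjusted p = 0.0472), and to -0.88 in 3’-LEXO (adjusted p = 0.0671). Ddit3 was then at -0.25 and 0.13 (adjusted p = 0.536 and 0.756). Which factor acted on any of these genes was not tested.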

How the data were processed

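Liver RNA of 6 mice was sequenced in 12 libraries. The authors mapped the single-end reads with STAR 2.5.3a to GRCm38 (mm10) and deposited raw counts, per gene, of the reads placed uniquely in its exons, without normalization or removal of duplicates. The counting program and the annotation release are not given in the sources used here. The count table holds 27022 Ensembl identifiers, of which 26940 matched a symbol in GENCODE M21. Totals per library set the precision, and p-values cover only the spread between mice of a cage.

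Groups were taken from the sample titles. Counts were filtered with filterByExpr, scaled by TMM and tested within each kit with the quasi-likelihood test of edgeR 4.0.16 (R 4.3.3, limma 3.58.1), with Benjamini-Hochberg adjustment over all tested genes and a threshold of 0.05. This test gives no SE, and the SE printed here is the absolute log2 fold change divided by the square root of the F statistic. The interaction of diet and kit was fitted over all 12 libraries. The fits were also run on simulated counts with the same dispersion for every gene and no outlying mouse. Such a simulation cannot show how they behave with a mouse like iron-loaded mouse 1. Alternatives were DESeq2 1.42.0, its size factors in edgeR, no filter, at least 10 counts in every library, 10000000 counts per library, a replicate block and leaving out each mouse. A robust edgeR fit and DESeq2 without iron-loaded mouse 1 were added after the data were seen. The same number in the titles was taken to name the same mouse in both kits. The paper made both libraries from each RNA and compared sample 1 of the 2 kits as the same RNA, without stating the match for other numbers. Between libraries of the same number, deviations from the group mean over 9311 genes with at least 50 counts correlated with r from 0.456 to 0.793. Iron-loaded mice 2 and 3 were hardly told apart, with 0.550 between the libraries of mouse 2 and 0.632 between a library of each. For these 2 mice the match therefore rests on the titles. These deviations used log2 of the TMM-scaled CPM plus a small constant. The log2 CPM for the likeness to Cdkn1a used a prior count of 2.

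All 10 genes are named. From each list of related genes those called in both kits are named, at most 6 per list, and for Cdkn1a the 5 most similar genes. The genes and lists were chosen with earlier results of these data known. Rprm and Trp73 were not analysed here. Exonic overlap of a gene with others was checked in GENCODE M21, where Cdkn1a shares 273 bases with an antisense model. Python 3.11.15, numpy 2.4.6, pandas 2.3.3, scipy 1.17.1 and matplotlib 3.10.9 were used for tables, sequences and figures.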

Additional observations from a re-analysis of the deposited data

How the results depend on the processing

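Of the 9 tested genes, Trad-KAPA called 3 and 3’-LEXO 1. With any 1 mouse left out these counts ranged from 0 to 3 and from 0 to 2. The Trad-KAPA count was 0 without control mouse 1 or 2 and 1 without iron-loaded mouse 3, and the 3’-LEXO count was 0 without any 1 control mouse and 2 without iron-loaded mouse 2. In 3’-LEXO it was 2 with DESeq2, with or without iron-loaded mouse 1, 3 with no filter on low counts, and 0 with at least 10 counts in every library, where Trp53inp1 had an adjusted p of 0.0504 (edgeR). Genes called of all tested numbered 2255 in Trad-KAPA (841 to 2803 with 1 mouse left out) and 811 in 3’-LEXO (199 to 871), and in 3’-LEXO 1313 with DESeq2 and 2040 with no filter. At 10000000 counts per library Mdm2 was not called in Trad-KAPA (adjusted p = 0.0804, edgeR), nor with DESeq2 without iron-loaded mouse 1 (0.0750), and with no filter Cdkn1a was called in both kits (adjusted p = 0.00197 and 2.6e-12). The cause was not tested.

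The replicate numbers do not pair mice across diets (r from -0.172 to 0.106), so that the diets share only a number. With the replicate block the calls were 3 in Trad-KAPA and 0 in 3’-LEXO (Trp53inp1 adjusted p = 0.1002, edgeR), and 436 of all genes in 3’-LEXO. With the mouse as a replicate block the interaction was called in 5 genes, with no filter in 7 and with DESeq2 without iron-loaded mouse 1 in 3, and in 0 of the genes tested here under each alternative. Cdkn1a got no p in that test from DESeq2, and Phlda3 was left out of it with at least 10 counts.

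Some log2 fold changes that had not passed the test turned in sign. With 10000000 counts these were Ccng1 in Trad-KAPA (-0.062) and 3’-LEXO (0.017) and the interactions of Bax (-0.20) and Ccng1 (0.083). With DESeq2 without iron-loaded mouse 1 they were Phlda3 (-0.64) and Ccng1 (-0.040) in Trad-KAPA and the interaction of Trp53 (0.059), which was also at 0.013 with DESeq2, 0.013 with its size factors and 0.018 with at least 10 counts. With 1 mouse left out, Phlda3 ranged from -0.63 to 0.67 and Ccng1 from -0.038 to 0.051 in Trad-KAPA, and Zmat3 from -0.16 to 0.082 and Ccng1 from -0.15 to 0.073 in 3’-LEXO. The interactions then ranged from -0.18 to 0.40 for Bbc3, -0.26 to 0.71 for Bax, -0.13 to 0.034 for Ccng1 and -0.16 to 0.16 for Trp53. The level ratio of the kits changed by less than its SD. Depth limits Eda2r and Phlda3 in both kits and Bax in 3’-LEXO.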
